A study of Mus musculus with 10 samples.

Results

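Mitochondrial ribosomal proteins are the protein parts of the ribosome that works inside mitochondria. Their genes were taken as all rows of the deposited counts whose symbol starts with Mrpl (large subunit) or Mrps (small subunit) followed by a number, which gave 69 of 23930 targets, 43 with an Mrpl and 26 with an Mrps symbol. Mrps18a and Mrps30 carry small-subunit names although their proteins sit in the large subunit, so that 45 genes belong to the large and 24 to the small subunit. Mrpl23, Mrpl27, Mrpl33, Mrpl53, Mrpl57, Mrps33, Mrps34 and Mrps36 were not found among the symbols and are not analysed here. Mrpl58 is listed under its older symbol Ict1, which the rule does not take, and was analysed with the further ribosome proteins of other symbols.

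The mitochondrial ribosome makes the few subunits of the respiratory chain that the mitochondrial genome encodes. All of its proteins are encoded in the nucleus, made in the cytosol and imported, and they assemble there with mitochondrial rRNA. Many descend from bacterial ribosomal proteins, and others are found only in mitochondrial ribosomes. In these libraries 42 of the genes encode homologues of bacterial proteins and 26 encode mitochondria-specific proteins, Mrps18a and Mrps18b counted among the latter, with Mrpl55 not placed in either class.

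Lung RNA came from wild-type female BALB/c mice that were young adults, with 4 libraries in the PBS group and 3 each in the HDM and HDM+Nafamostat groups. PBS mice were given the buffer intranasally. HDM mice received house dust mite extract, a source of airway allergens, by the same route 2 times per week for 3 weeks, although the figure legends of the study give a longer course. HDM+Nafamostat mice in addition received nafamostat, an inhibitor of serine proteases, into the peritoneum (20 mg/kg) ahead of every instillation by 30 minutes. Nafamostat was dissolved in dilute acetic acid in PBS, and whether the PBS and HDM mice that were sequenced received this vehicle is not given in the labels. The labels number the replicates without saying how mice were housed or processed, so the p-values measure the spread between these libraries only.

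The panel reads 1 amplicon per gene, and a count is its number of reads. Library totals were 5901279 to 7353792 counts in the PBS, 7105946 to 9354416 in the HDM and 8053532 to 9666354 in the HDM+Nafamostat group. Levels are CPM (counts scaled by library size with the trimmed mean of M values), and changes are log2 fold changes ± SE from edgeR's quasi-likelihood fit of each pair of groups, with p-values adjusted by Benjamini-Hochberg over all genes tested. Rose and fell mean an adjusted p under 0.05. Amplicons differ in how well they amplify, so levels are compared between libraries and not between genes. Across the cell marker lists, alveolar type 1, club, ciliated, capillary and fibroblast sums were lower in each HDM library than in each PBS library. Eosinophil, macrophage, neutrophil and B or plasma cell sums were higher, including 280 to 372 CPM for 6 eosinophil markers in HDM libraries against 23.3 to 61.0 in PBS libraries. HDM replicate 3 and HDM+Nafamostat replicate 2 held the highest sums of 1057 olfactory receptor genes in their groups, 1649 and 416 CPM. In PBS libraries this sum was 52.1 to 619 CPM, with the highest value in replicate 2.

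All 69 genes passed the filter on low values, a sum of 30 counts or more in the libraries compared. Together they took 0.263 to 0.325% of the counts in PBS, 0.366 to 0.423% in HDM and 0.305 to 0.337% in HDM+Nafamostat libraries. Their summed level was 2931, 2715, 2472 and 3315 CPM in the PBS libraries. It was 3957, 3814 and 4388 CPM in the HDM libraries, each above every PBS library. With nafamostat it was 3445, 3101 and 3097 CPM, below every HDM library and overlapping the PBS libraries.

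**Figure D1:**
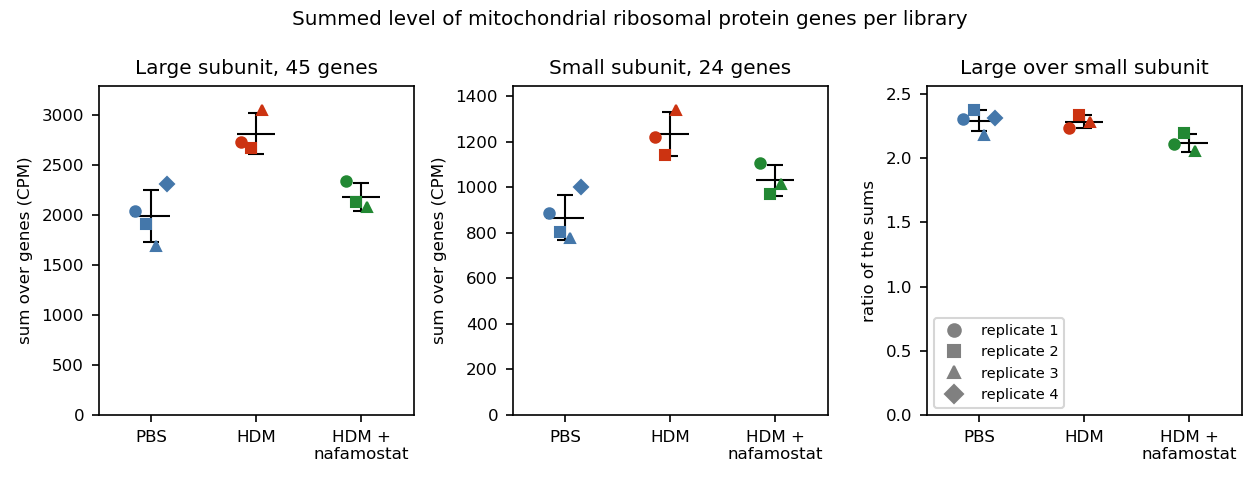
Summed level (CPM) of the 45 large-subunit genes and the 24 small-subunit genes, and the ratio of the sums, in each library. Points are libraries, marked by replicate number, and black bars are the mean ± SD. Large-subunit sums were 1694 to 2315 in PBS, 2672 to 3051 in HDM and 2082 to 2339 in HDM+Nafamostat libraries.

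The large-subunit sum was 1991 ± 260 CPM (SD, n = 4) in the PBS, 2819 ± 203 (n = 3) in the HDM and 2184 ± 136 (n = 3) in the HDM+Nafamostat group. The small-subunit sum was 867 ± 99.97, 1234.2 ± 98.2 and 1031 ± 69.5 CPM in the same order. The ratio of the large to the small sum was 2.18 to 2.37 in PBS and 2.24 to 2.34 in HDM libraries, which overlap. In HDM+Nafamostat libraries it was 2.05 to 2.19, below each HDM library and reaching the lowest PBS library.

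Does HDM sensitization change these genes? In HDM compared with PBS lungs, 37 of the 69 mitochondrial ribosomal protein genes rose and 0 fell. Of all 14608 genes tested, 15.3% rose and 14.2% fell. Without adjustment, 41 genes were higher and 0 lower at a p under 0.05 by edgeR, against 20.3% and 19.9% of all genes. DESeq2 called 38 higher and 0 lower, against 15.5% and 14.1% of all genes. With library totals in place of TMM, 28 rose and 0 fell, while 13.1% of all genes rose and 18.1% fell. The median log2 fold change of the 69 genes was 0.51, against 0.02 for all genes tested. All but 1 of them had a positive change, against 51.6% of all genes, and the changes ran from −0.09 to 1.06.

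The rise was spread over the ribosome. It held for 23 of 45 large-subunit and 14 of 24 small-subunit genes, with medians of 0.48 and 0.54. It held for 25 of 42 genes of bacterial descent and 12 of 26 mitochondria-specific genes, with medians of 0.54 and 0.41. These pairs of medians were not tested against each other. The change was small per gene, and 2 of the 69 rose by at least 2-fold, Mrpl21 and Mrps18a, against 7.28% of all genes, while 0 fell by as much, against 4.10%. For 47 genes every HDM library lay above every PBS library, against 19.3% of all genes.

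**Figure D2:**
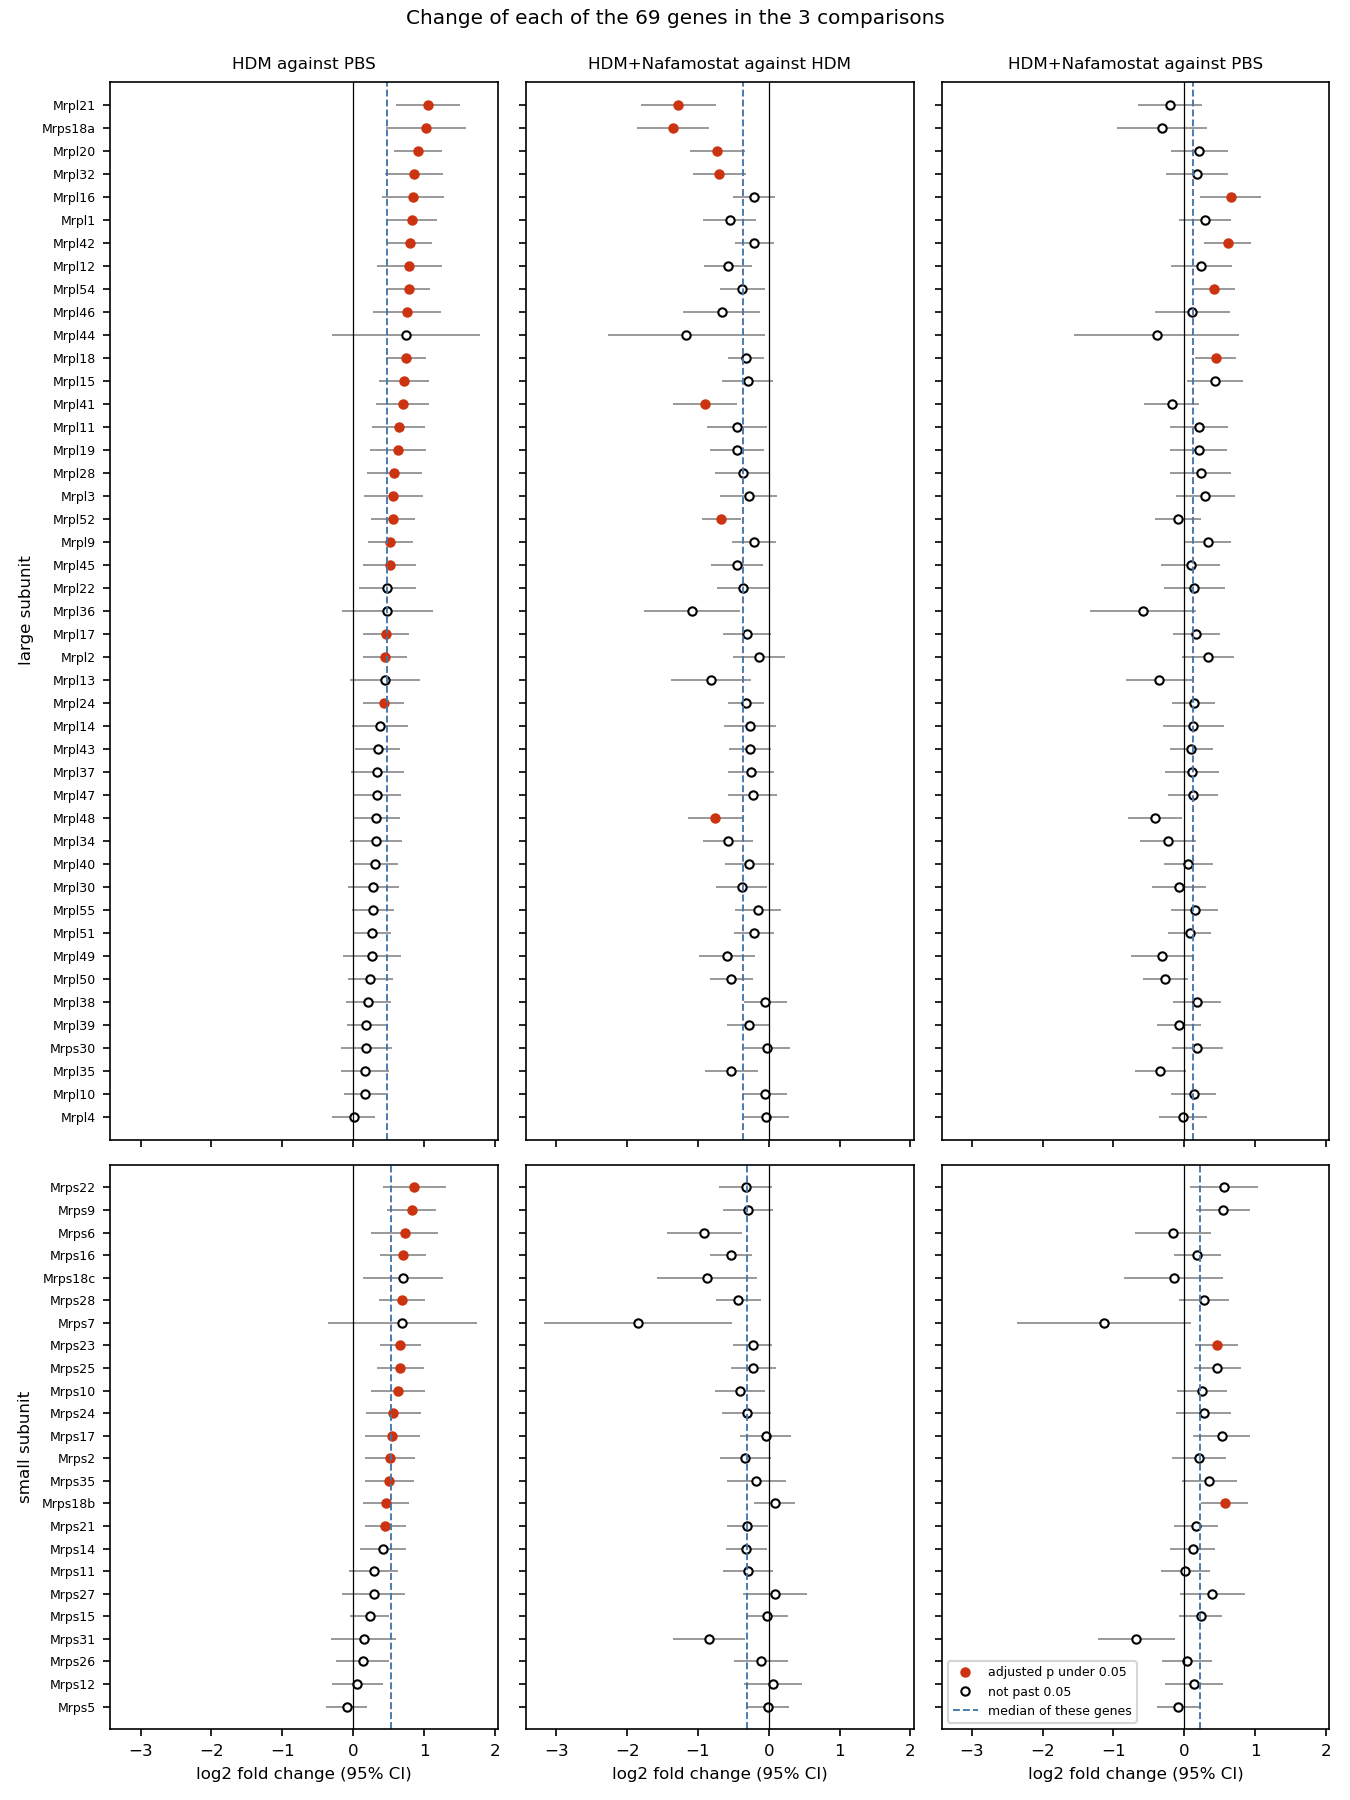
Log2 fold change with its 95% confidence interval for the 69 genes in each comparison, large subunit above and small subunit below, in the order of the change with HDM. Filled points pass an adjusted p under 0.05 and dashed lines are the medians of the genes shown. In the HDM panel 37 points are filled and lie to the right of 0, and in the panel of HDM+Nafamostat against HDM the 7 filled points all belong to the large subunit.

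Leaving out HDM replicate 3 lowered the count from 37 to 21 genes, with a median of 0.43, in a run where 11.9% of all genes rose. Without any other single library it was 25 to 41, where 13% to 17.4% of all genes rose. The share of all genes that rose in every run was not counted. Of the 37 genes, 17 rose in each of the 7 runs that left out a library. They were Mrpl1, Mrpl15, Mrpl16, Mrpl18, Mrpl20, Mrpl21, Mrpl32, Mrpl42, Mrpl52, Mrpl54, Mrps9, Mrps16, Mrps18a, Mrps22, Mrps23, Mrps25 and Mrps28.

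Among large-subunit genes of bacterial descent, Mrpl20 had the smallest p. Its level was 17.8, 17.4, 17.3 and 21.3 CPM in PBS libraries and 36.9, 30.8 and 38.1 CPM in HDM libraries. The groups did not overlap, and the change was 0.92 ± 0.16 (adjusted p = 5.81e-04 by edgeR). Mrpl21 went from 14.7 to 20.7 CPM in PBS to 27.8, 34.4 and 53.3 CPM in HDM libraries, a change of 1.06 ± 0.21 (adjusted p = 0.00158, edgeR). HDM replicate 3 was the highest of these, and without it the change was 0.75. Mrpl18, the homologue of a bacterial protein that binds 5S rRNA, went from 84.5 to 113 CPM in PBS to 149 to 169 CPM in HDM libraries (0.75 ± 0.13). Mrpl1, the homologue of the protein of the mobile L1 stalk, had 24.1 to 32.0 CPM in PBS and 40.6 to 58.2 CPM in HDM libraries (0.83 ± 0.17).

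Genes of the catalytic centre and most genes of the stalk that recruits translation factors rose. Mrpl2 and Mrpl3, whose proteins lie at or near the peptidyl transferase centre, rose by 0.45 ± 0.15 and 0.57 ± 0.20. Neither call held without HDM replicate 3 (0.41 and 0.39), and both were also lost without PBS replicate 2 (0.43 and 0.55), PBS replicate 3 (0.41 and 0.45) or HDM replicate 2 (0.48 and 0.64). Mrpl2 was lost without HDM replicate 1 as well (0.47), and both calls were lost with library totals (0.37 and 0.48). Mrpl12, the stalk protein, whose human homologue also binds the mitochondrial RNA polymerase, rose by 0.79 ± 0.21, and its call was lost without HDM replicate 3 (0.62). Mrpl11, at the base of the stalk, rose by 0.64 ± 0.17, and its call was lost without HDM replicate 2 (0.52). Mrpl10, also at the base of the stalk, had 42.3 to 53.3 CPM in PBS and 52.5 to 61.0 CPM in HDM libraries, which overlap, with a change of 0.17 ± 0.14 (adjusted p = 0.389). The ratio of Mrpl12 to Mrpl10 was 0.542 to 0.855 in PBS, 0.985 to 1.26 in HDM and 0.636 to 0.931 in HDM+Nafamostat libraries. It was therefore higher in every HDM library than in any other library, as a description without a test.

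At the exit of the tunnel through which the new chain leaves, Mrpl24 and Mrpl45 rose by 0.43 ± 0.14 and 0.52 ± 0.18, while Mrpl47 changed by 0.33 ± 0.16 (adjusted p = 0.125). Mrpl45 holds the ribosome at the inner membrane. Without any library other than PBS replicate 4 the Mrpl24 and Mrpl45 calls were lost, at changes of 0.35 to 0.45 and 0.44 to 0.57, and both were lost with library totals (0.35 and 0.44). Among mitochondria-specific large-subunit genes, Mrpl42 went from 35.5 to 53.4 CPM in PBS to 73.8, 74.1 and 83.0 CPM in HDM libraries (0.80 ± 0.15, adjusted p = 0.00104, edgeR). Mrpl54 went from 85.0 to 107 CPM in PBS to 147, 149 and 201 CPM in HDM libraries (0.78 ± 0.14), without overlap.

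In the small subunit, Mrps9 and Mrps23 had the smallest p-values and Mrps22 the largest change. Mrps9 had 25 to 38.2 CPM in PBS and 49.3 to 58.5 CPM in HDM libraries (0.83 ± 0.16). Mrps22 had 10.9 to 21.4 CPM in PBS and 29.8 to 32.0 CPM in HDM libraries (0.87 ± 0.21). Mrps23 had 80.9 to 110 CPM in PBS and 139 to 160 CPM in HDM libraries (0.67 ± 0.14). None of these 3 overlapped between the groups. Mrps7, which binds the head of the small-subunit rRNA, had 9 to 14 counts in PBS and 14 to 32 counts in HDM libraries, and at this depth its change of 0.69 ± 0.50 was not resolved.

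Some members differed little between the groups. Mrpl4 had 48.0, 47.4, 36.5 and 44.3 CPM in PBS and 47.2, 42.8 and 44.2 CPM in HDM libraries, a change of 0.01 ± 0.14. Mrps12, a protein of the decoding centre, changed by 0.06 ± 0.17, and scaling by library totals or leaving out PBS replicate 3 turned its sign (−0.03 and −0.02). Mrps5 was the single gene with a negative change (−0.09 ± 0.14, adjusted p = 0.648), with 44.3 to 50.4 CPM in PBS and 41.6 to 47.3 CPM in HDM libraries. An adjusted p that misses the threshold does not show that these genes did not change.

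**Figure D3:**
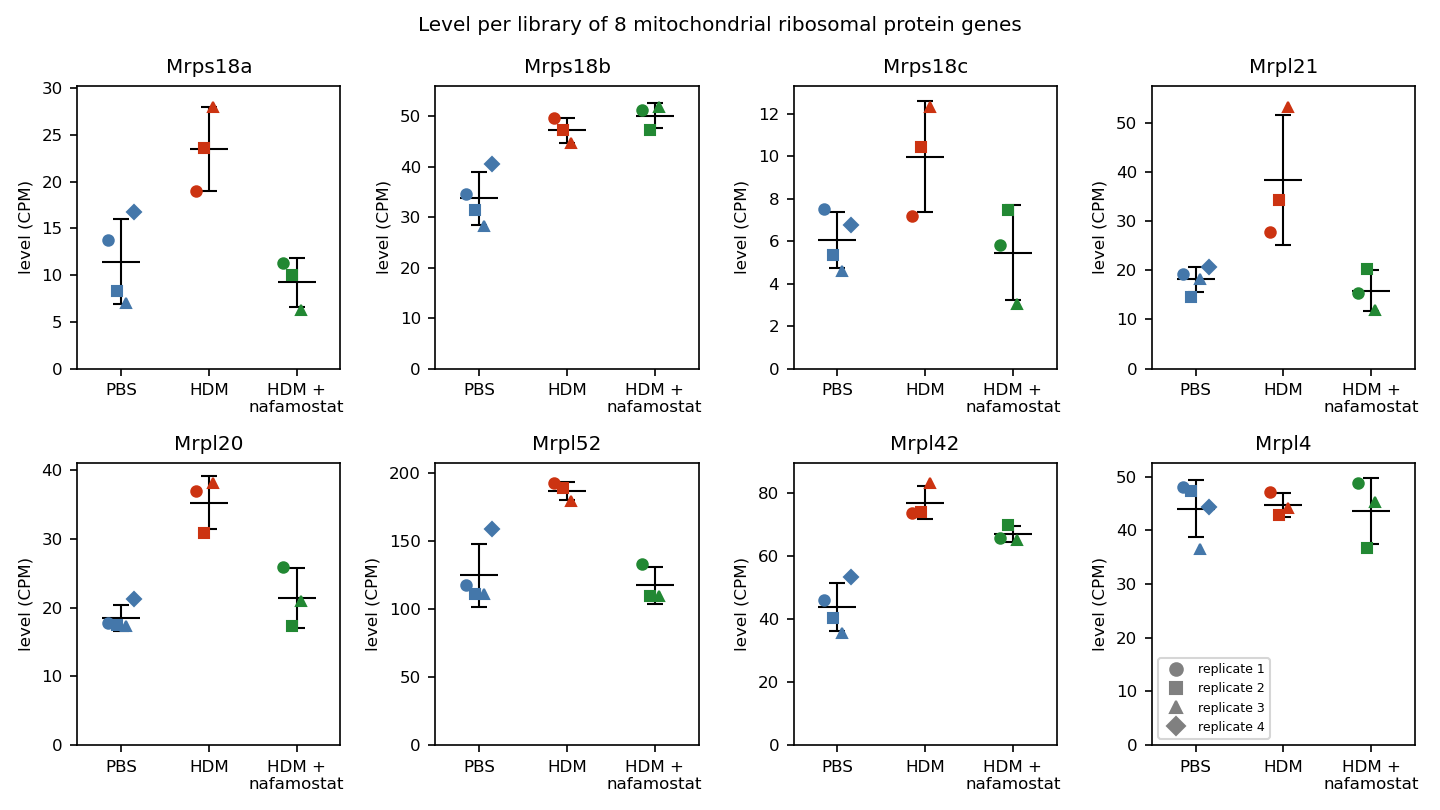
Level (CPM) of 8 genes in each library. Points are libraries, marked by replicate number, and black bars are the mean ± SD. Mrps18a, Mrpl21, Mrpl20 and Mrpl52 were highest in HDM libraries, Mrps18b and Mrpl42 stayed above PBS with nafamostat, and Mrpl4 was at a like level in all groups.

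The eosinophil, macrophage, neutrophil, B or plasma cell and goblet cell sums were higher in each HDM library than in each PBS library. The sum of 7 T cell markers overlapped, at 108 to 169 CPM in PBS and 159 to 268 CPM in HDM libraries. The 6 goblet markers summed to 56.4 to 75.2 CPM in PBS, 2914 to 4163 in HDM and 3963 to 4738 in HDM+Nafamostat libraries, so that the last 2 groups overlapped. The 6 eosinophil markers had 91.0 to 121 CPM in HDM+Nafamostat libraries, and Epx was at 0 counts in all PBS libraries. The 11 macrophage markers summed to 313 to 340 CPM in PBS, 1172 to 1696 in HDM and 798 to 1393 in HDM+Nafamostat libraries, with C1qa at 0 counts in the PBS and HDM libraries. The 11 proliferation markers summed to 54.5 to 102, 224 to 358 and 163 to 294 CPM, with Rrm2 at 0 counts in the HDM and HDM+Nafamostat libraries. The 10 heart muscle markers, which in the mouse lung come from the muscle sleeve of the pulmonary veins, a tissue rich in mitochondria, summed to 805 to 1392 CPM in PBS, 393 to 816 in HDM and 529 to 857 in HDM+Nafamostat libraries. Their part in the change of the mitochondrial ribosomal protein genes was not tested. In lung tissue, more cells of one type and more RNA per cell cannot be told apart.

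Does nafamostat change these genes in HDM-sensitized mice? In HDM+Nafamostat compared with HDM lungs, 7 of the 69 genes fell and 0 rose. Of all 14413 genes tested, 1.97% fell and 0.951% rose. Without adjustment 33 genes were lower and 0 higher at a p under 0.05 by edgeR, against 11.4% and 9.99% of all genes. DESeq2 called 12 lower and 0 higher, while it called 4.44% of all genes lower and 3.08% higher. The median log2 fold change was −0.32, against −0.01 for all genes. All but 3 of the 69 had a negative change, where 48.9% of all genes were positive, and for 35 every HDM+Nafamostat library lay below every HDM library, against 12.9% of all genes. For 0 of the 69 every such library lay above, against 12.6%. Both comparisons use the same HDM libraries.

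The 7 genes that fell were Mrps18a (−1.36 ± 0.24), Mrpl52 (−0.67 ± 0.13), Mrpl21 (−1.28 ± 0.25), Mrpl41 (−0.90 ± 0.21), Mrpl48 (−0.75 ± 0.18), Mrpl32 (−0.70 ± 0.18) and Mrpl20 (−0.72 ± 0.18). All 7 belong to the large subunit, which had 45 of the 69 genes. This did not hold in each other fit, and DESeq2 also called Mrps16 (−0.54) and Mrps6 (−0.91) of the small subunit lower. The medians were −0.37 for the large and −0.30 for the small subunit. Mrps18a and Mrpl21 fell by at least 2-fold, against 0.729% of all genes. The adjusted p was 0.0149 for Mrps18a and 0.0192 for Mrpl52, and it was close to the threshold for Mrpl32 (0.0497) and Mrpl20 (0.04996), all by edgeR.

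Mrpl52 had 133, 110 and 109 CPM with nafamostat and 192, 188 and 179 CPM with HDM alone, without overlap. In PBS libraries it had 118, 111, 111 and 159 CPM. Mrpl21 had 15.4, 20.2 and 11.97 CPM with nafamostat, below each HDM library (27.8 or more). Mrpl32, whose protein is cut to its mature form by a protease of the inner membrane in yeast and mice, had 43.6, 28.9 and 40.1 CPM with nafamostat and 61.0, 51.9 and 69.8 CPM with HDM alone. Mrpl41 had 22.7, 28.6 and 17.96 CPM against 31.8, 45.5 and 51.7 CPM, and Mrpl48 had 32.6, 30.0 and 21.6 CPM against 47.1, 41.4 and 53.4 CPM. In each of these genes the HDM+Nafamostat libraries lay below the HDM libraries.

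No call in this comparison held in all 6 runs that left out a library. Without HDM+Nafamostat replicate 3, the count was 0, in a run where 0.0985% of all genes fell. There 66 of 69 changes were negative, and the median was −0.31. The count was 3 without HDM replicate 1, 4 without HDM replicate 2 and 3 without HDM replicate 3. In these runs 0.82%, 1.53% and 1.02% of all genes fell, in this order. Mrps18a and Mrpl21 were lost in 1 of the 6 runs, the one without HDM+Nafamostat replicate 3, where they stood at −1.14 and −1.11. Mrpl52 was lost in that run (−0.62) and without HDM replicate 1 (−0.65). Mrpl41 and Mrpl48 were lost in 4 and Mrpl32 and Mrpl20 in 5 of the 6 runs, at −0.89 to −0.54. With library totals in place of TMM, 3 genes fell and 0 rose, while 1.54% of all genes fell and 1.66% rose.

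Mrps18a, Mrps18b and Mrps18c are 3 relatives of a single bacterial protein, S18, and only Mrps18a sits in the large subunit. Mrps18a had 13.7, 8.28, 7.04 and 16.7 CPM in PBS, 19.0, 23.6 and 28.0 CPM in HDM and 11.3, 10.0 and 6.30 CPM in HDM+Nafamostat libraries. Mrps18b had 34.6, 31.5, 28.3 and 40.5 CPM in PBS, 49.7, 47.2 and 44.7 CPM in HDM and 51.2, 47.3 and 51.9 CPM in HDM+Nafamostat libraries. Mrps18c had 7.52, 5.38, 4.61 and 6.78 CPM in PBS, 7.17, 10.5 and 12.3 CPM in HDM and 5.84, 7.48 and 3.05 CPM in HDM+Nafamostat libraries.

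Mrps18a was thus higher in each HDM library than in any other library, with HDM+Nafamostat replicate 3 below the lowest PBS library, while Mrps18b overlapped its HDM level in the HDM+Nafamostat libraries. Mrps18b rose with HDM (0.47 ± 0.15), was 0.09 ± 0.14 apart from HDM with nafamostat (adjusted p = 0.755, 95% interval −0.21 to 0.38 on the log2 scale), and was higher than PBS with nafamostat (0.57 ± 0.16, adjusted p = 0.0203, edgeR). Its call with HDM was lost without any one library except PBS replicate 4, at changes of 0.39 to 0.51, and with library totals (0.385). The ratio of Mrps18a to Mrps18b was 0.249 to 0.412 in PBS, 0.381 to 0.626 in HDM and 0.121 to 0.221 in HDM+Nafamostat libraries, so that the HDM+Nafamostat libraries lay below all others. Mrps18a and Mrps18c moved in the same direction in both comparisons with HDM libraries. Mrps18c did not pass the threshold in either (adjusted p = 0.0594 and 0.149, edgeR). Their ratio in the PBS libraries (1.53 to 2.47) overlapped that in the HDM (2.26 to 2.65) and HDM+Nafamostat (1.34 to 2.07) groups. It was higher in each HDM library than in each HDM+Nafamostat library. These ratios were not tested.

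Does nafamostat return these genes to the PBS level? In HDM+Nafamostat compared with PBS lungs, 6 of the 69 genes were higher and 0 lower, against 8.73% and 5.53% of all 14079 genes tested. Without adjustment 12 were higher and 2 lower, against 14.9% and 12.7% of all genes. DESeq2 called 7 higher and 0 lower, against 9.25% and 7.18% of all genes, so that the counts of higher genes lay near the share of all genes. The median was 0.14, against −0.01 for all genes, and 49 of the 69 changes were positive, against 48.8% of all genes. The 6 genes were Mrpl42 (0.61 ± 0.16), Mrps18b (0.57 ± 0.16), Mrpl18 (0.44 ± 0.14), Mrps23 (0.46 ± 0.14), Mrpl16 (0.65 ± 0.21) and Mrpl54 (0.42 ± 0.14). None of the 69 was higher or lower by at least 2-fold at this adjusted p, against 4.62% and 1.14% of all genes. None of the 6 calls held in all 7 runs that left out a library.

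The count was 3 without PBS replicate 1, 2 without HDM+Nafamostat replicate 2 and 9 without PBS replicate 4. It was 1 without PBS replicate 2, PBS replicate 3, HDM+Nafamostat replicate 1 or HDM+Nafamostat replicate 3. Of all genes, 5.6% to 10.4% were higher in these runs. Mrpl42 had 65.8, 69.9 and 65.2 CPM with nafamostat, above each PBS library (53.4 or less) and below each HDM library. Its call was lost in a single run, the one without HDM+Nafamostat replicate 2 (0.58). Mrps18b was lost in 4 and the other 4 genes in 6 of the 7 runs, at 0.35 to 0.71. With library totals Mrpl16 (0.595), Mrps23 (0.41) and Mrpl54 (0.37) were lost. Mrps31 had 7.62, 5.39 and 8.09 CPM with nafamostat, below each PBS library (8.71 or more), at −0.68 ± 0.26 (adjusted p = 0.0885, edgeR). Of the 69 genes, 4 lay below every PBS library in this way, against 10.4% of all genes, and 11 lay above, against 13.7%. The 95% interval of the change from PBS lay within 2-fold (−1 to 1 on the log2 scale) for 63 of the 69 genes and within 0.5 on that scale for 18.

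The stretches before the start site of 4 of these genes are shown because promoters of genes for mitochondrial ribosomes often carry ETS motifs. They are the bases upstream of the RefSeq start (build GRCm38.p6), cut where an exon of GENCODE begins, with a match on either strand to the ETS core CCGGAAG in capitals. Mrps18a and Mrpl52 rose with HDM and fell with nafamostat, Mrps22 rose with HDM, and Mrpl20 moved like the first pair with no match in this stretch. The ETS core was in 29.9% of the promoter windows described below, so most windows lacked it.
Mrps18a, chr17:46110904-46110985, plus strand: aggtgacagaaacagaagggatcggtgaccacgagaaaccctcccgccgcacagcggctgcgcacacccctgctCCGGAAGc
Mrpl52, chr14:54426809-54426908, plus strand: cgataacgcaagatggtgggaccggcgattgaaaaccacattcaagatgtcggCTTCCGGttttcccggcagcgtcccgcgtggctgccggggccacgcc
Mrps22, chr9:98601680-98601779, minus strand: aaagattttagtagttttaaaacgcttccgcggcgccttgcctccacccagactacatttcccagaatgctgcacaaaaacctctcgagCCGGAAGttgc
Mrpl20, chr4:155802778-155802877, plus strand: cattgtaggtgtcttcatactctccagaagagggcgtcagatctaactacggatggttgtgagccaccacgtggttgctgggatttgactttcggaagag

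Promoter windows of 300 bases (250 before to 50 after the RefSeq start) were held for 61 of the 69 genes, in 67 windows. Motif letters were searched on both strands. CCGGAAG, the core bound by the ETS factor GABP, was in 29.9% of them and in 14.5% of 14119 windows of genes tested. GCATGCGC, the core bound by NRF1, a regulator of nuclear genes for mitochondria, was in 10.4% against 4.39%, and ATGGCGGC, bound by YY1, in 14.9% against 3.80%. CCAAT was in 40.3% against 36.3%, TATAAA in 7.46% against 8.81%, and CACGTG in 10.4% against 8.95%. In windows of the genes that rose with HDM, CCGGAAG was in 31.4% (11 of 35), and in windows of the other members in 28.1% (9 of 32). ATGGCGGC was in 5.71% (2 of 35) of the windows of genes that rose and in 8 of 32 of the others, and CCAAT in 51.4% (18 of 35) and 28.1% (9 of 32). The shares were 11.4% and 9.38% for GCATGCGC and for CACGTG, and 11.4% and 3.12% for TATAAA, all without a test. All these shares count windows, and the 35 and 32 windows came from 32 and 29 genes. The CACGTG windows of genes that rose were those of Mrpl20 and the overlapping windows of Mrpl2. Mrpl2 and Mrps16 also had several windows with CCAAT. Shares by gene would differ, and the higher share of CACGTG rests on the repeated windows of Mrpl2. A match is a description of letters and not of a binding site.

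Genes of short transcripts moved up with HDM across the tested genes, and the mitochondrial ribosomal protein genes are short. The median transcript length was 1339 bases (418 to 7300), against 2997 for genes tested. The other genes used here had a mean level within the range of the members (1.81 to 196 CPM) and were not matched further on level. Of them, 40.5% rose under 1000 bases, 25.9% from 1000, 15.4% from 2000 and 7.76% from 4000 bases, with medians of 0.42, 0.21, −0.01 and −0.23. Among the mitochondrial ribosomal protein genes 10 of 19, 14 of 27, 7 of 14 and 6 of 9 rose in these classes, with medians of 0.56, 0.47, 0.47 and 0.51. The medians of other genes were lower the longer the transcript, while those of the mitochondrial ribosomal protein genes ran from 0.47 to 0.56, and the part of length in their change was not tested. For HDM+Nafamostat against HDM the medians of other genes were −0.31, −0.14, 0.02 and 0.16 and those of the mitochondrial ribosomal protein genes −0.38, −0.30, −0.39 and −0.21. In these classes 9.78%, 3.75%, 1.46% and 0.397% of other genes fell, and 4 of 19, 1 of 27, 1 of 14 and 1 of 9 mitochondrial ribosomal protein genes did. From 1000 to 2000 bases their share (3.70%) was that of other genes.

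**Figure D4:**
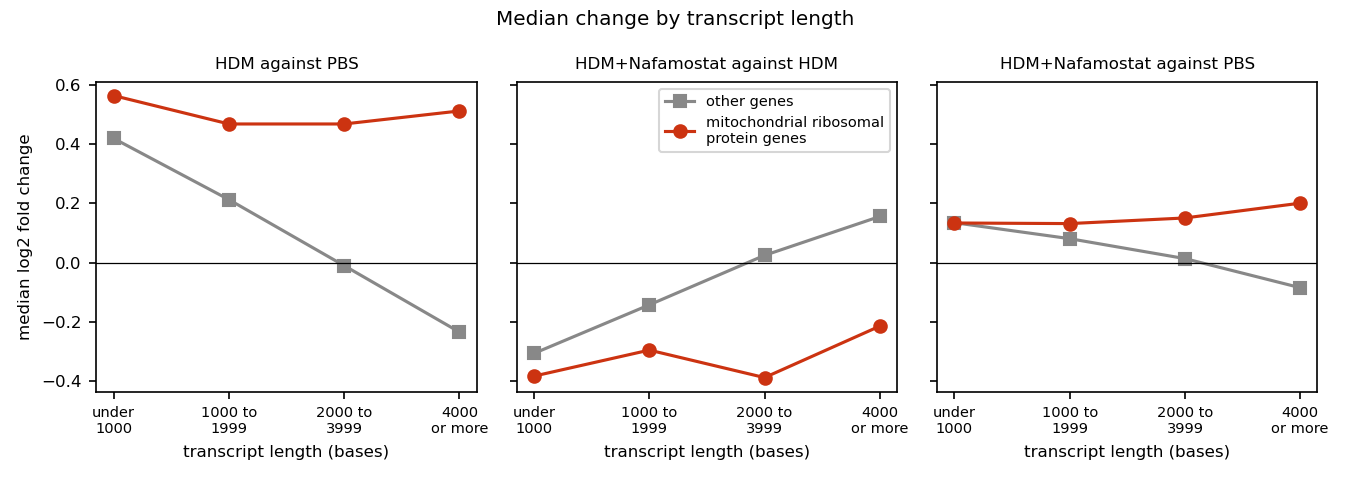
Median log2 fold change by transcript length in the 3 comparisons, for the mitochondrial ribosomal protein genes (circles) and for other genes (squares). The other genes had a mean level within the range of the mitochondrial ribosomal protein genes. With HDM, the medians of other genes run from 0.42 in the shortest to −0.23 in the longest class, and those of the mitochondrial ribosomal protein genes stay between 0.47 and 0.56.

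The lists of other mitochondrial translation genes are short, and 15.3% of all genes rose and 14.2% fell with HDM. With nafamostat, 1.97% of all genes fell against HDM. A list of 21 tested genes held aminoacyl-tRNA synthetases, which load amino acids on tRNAs. It also held Qrsl1, Gatb and Gatc, subunits of an amidotransferase that acts on loaded tRNA. Gars and Kars in this list also encode the cytosolic enzymes. Of these 21 genes, 0 rose or fell with HDM, and the median was 0.10. A list of 16 genes held translation factors together with other proteins, such as Oxa1l, Letm1, Lrpprc and Slirp. Of these 16 genes 1 rose, Slirp (0.91 ± 0.20), an RNA-binding protein that stabilizes mitochondrial mRNAs and is not itself a translation factor. Of 23 ribosome assembly factors 2 rose (Mpv17l2, 0.43 ± 0.13, and C1qbp, 0.44 ± 0.13). Of 5 further ribosome proteins with other symbols Chchd1 rose (0.46 ± 0.16), and it fell with nafamostat (−0.59 ± 0.14). Of 11 import and mass genes, Tomm22, a receptor of the outer membrane, rose by 0.98 ± 0.19 and fell by 1.15 ± 0.18 with nafamostat, and Phb2 rose by 0.51 ± 0.15. Among 12 regulators, Esrra (0.86 ± 0.15) and Myc (0.91 ± 0.24) rose with HDM, and Gabpa (−0.52 ± 0.17) and Yy1 (−0.37 ± 0.12) fell. The shares of regulators that rose and fell (16.7% each) were near those of all genes. So were the shares that rose of import and mass genes (18.2%) and of the further ribosome proteins (20%). Whether these lists differ from the mitochondrial ribosomal protein genes was not tested.

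Over the 10 libraries most pairs of these genes were positively correlated, which includes the group changes given above. No such value is given for other genes. The median Pearson correlation of the 2346 pairs was 0.60 in log2 CPM, and 0.35 for deviations from the group means, as descriptions that share library and depth. Mrpl1 (0.96), Mrpl32 (0.95) and Mrps16 (0.95) lay closest to the mean of the other members, and Mrps5 (−0.37) and Mrps12 (0.10) farthest from it. Levels spanned a mean of 1.81 to 196 CPM, and the genes lay on 17 chromosomes, with 9 on chromosome 11 and 7 on chromosome 17. Mrpl46 and Mrps11 lie head to head on opposite strands of chromosome 7, and their GENCODE gene spans overlap at the starts. Whether their first exons overlap is not given here. Mrpl46 rose with HDM (0.76 ± 0.22, lost without HDM replicate 3 at 0.53) and Mrps11 changed by 0.29 ± 0.16 (adjusted p = 0.192). Where their amplicons lie was not used here, so their reads may not be fully separate.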

How the data were processed

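Counts were deposited by the authors as raw whole-number reads per target of the Ion AmpliSeq Transcriptome Mouse panel, with no normalization, and their notes name the build mm10. The aligner and counter settings are not given in the sources used here. Files hold whole numbers with differing totals, and 27 symbols altered by a spreadsheet were restored from the amplicon name. The smallest library had 5901279 counts, which sets the depth. Reads carried no molecular identifiers, so any counting error is a lower limit. No libraries held identical values.

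Libraries were grouped by their labels. Each pair of groups was fitted on its own libraries with edgeR 4.0.16 in R 4.3.3 (TMM, quasi-likelihood F test, sum of counts of at least 30, Benjamini-Hochberg over all genes tested). DESeq2 1.42.0 was an alternative, beside median-of-ratios factors, library totals, no filter, filterByExpr, all groups in one fit, a replicate block, thinning to the smallest total, and leaving out each library. Gene positions and lengths are from GENCODE vM21 and promoter windows from RefSeq, both on GRCm38. The code was tested on simulated counts.

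The members and the related and marker lists were chosen with earlier results of these data known. Genes named in the text are those past a 2-fold change, the smallest p per comparison, the highest and lowest levels per subunit, the Mrps18 genes, Mrps30 and genes with a marked role in the ribosome. Mrpl4, Mrps5, Mrpl46, Mrps11 and the genes listed as holding in each run were named after their values were seen. Same-numbered replicates did not deviate together in every pair, so the number was not used to pair libraries.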

Additional observations from a re-analysis of the deposited data

Results flagged for a closer look

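Among 47 values checked in the 4 PBS libraries, 2 had a library far from the others, and chance gives this in about 1 of 20. PBS replicate 4 was the highest for Mrpl20, at 21.3 CPM against 17.3 to 17.8 CPM in the other PBS libraries. It was also the highest for Mrpl52, at 158.75 CPM (159) against 111 to 118 CPM. The groups of 3 libraries were not checked in this way.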

How the results depend on the processing

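The direction of the 3 medians and the absence of opposite calls held under all alternatives. The count of genes that rose with HDM (37) was 28 to 39 under the other settings, and without a library 21 (HDM replicate 3) to 41 (PBS replicate 4). Of all genes, 11.7% to 17.5% rose under the other settings and 11.9% to 17.4% without a library. The count that fell with nafamostat (7) was 3 with library totals, 12 with DESeq2, 18 with no filter and 1 with the replicate block. In these fits 1.54%, 4.44%, 3.75% and 0.52% of all genes fell. The count was 4 without both libraries of the highest olfactory receptor sums, an alternative chosen after seeing the data. There 1.99% of all genes fell. Without a library the count was 0 (HDM+Nafamostat replicate 3) to 7, while 0.0985% to 3.24% of all genes fell. The count above PBS with nafamostat (6) was 3 with library totals and 11 with the replicate block, and 1 to 9 without a library. Of all genes, 7.66%, 10.9% and 5.6% to 10.4% were higher there. Same-numbered libraries correlated with each other at −0.33 to −0.07, −0.31 to 0.12 and −0.00 to 0.36 in the 3 comparisons, and not every library correlated best with its own number, so the replicate block pairs libraries by number alone. The cause of these shifts was not tested.

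Genes of small change turned sign. For HDM against PBS, Mrps12 was −0.0295 with library totals and −0.0247 to 0.162 without a library. For HDM+Nafamostat against HDM with library totals, Mrps30 was 0.0335 and Mrps5 0.0369, and Mrps5 was 0.0174 after thinning. Without both olfactory-high libraries, Mrpl2 was 0.0599, Mrpl3 0.00402, Mrps30 0.0267 and Mrps5 0.0670. Without a library, Mrpl10 was −0.155 to 0.0352, Mrpl2 −0.237 to 0.0242, Mrps12 −0.0928 to 0.239, Mrps27 −0.0963 to 0.229, Mrps30 −0.0972 to 0.0449 and Mrps5 −0.0726 to 0.0423. For HDM+Nafamostat against PBS, Mrpl52 was 0.0342 with the replicate block and −0.198 to 0.0403 without a library. Mrpl45 was −0.103 to 0.247, Mrpl47 −0.00163 to 0.219, Mrpl51 −0.0411 to 0.137, Mrps12 −0.0210 to 0.311 and Mrps18c −0.457 to 0.138 without a library. Mrps7 and Mrpl44, with the fewest counts, are limited by depth.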
